A study of Mus musculus with 6 samples.

Results

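A set of 9 genes of dopamine and adenosine signalling in the striatum, Ppp1r1b, Drd2, Adora2a, Rgs9, Pde10a, Gpr6, Adcy5, Gnal and Pde1b, was examined among the 23282 entries of the deposited count tables. The genes were taken by their symbols, and each symbol occurred once in the tables. They were chosen by their counts in these same libraries, so their levels, fold changes and numbers of calls are given as a description and not as a test. The tables came from QuantSeq 3′ mRNA-Seq, which reads transcripts next to the poly(A) tail, of forebrain RNA from male C57BL/6J mice aged 8 to 10 weeks, with 1 library per mouse. The 3 mice labelled WAS had stood for 1 h on a platform surrounded by water, and the 3 mice labelled control had stood for the same time on that platform in a dry container. The mice were killed directly afterwards, and RNA came from a forebrain hemisphere without olfactory bulb and cerebellum. The libraries held between 9248520 and 10502029 counts. Column headings of the tables begin with WC for the WAS label and with WS for the control label, and the sources used here leave WC and WS undefined. Groups were taken from the sample labels, so an exchange of labels would invert all directions between groups given here. Of the 9 genes, 7 passed the filter on low counts and 2, Drd2 and Gpr6, did not.

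Most neurons of the striatum are GABAergic spiny projection neurons. Those of the direct pathway carry the dopamine receptor D1, and those of the indirect pathway carry the dopamine receptor D2 together with the adenosine receptor encoded by Adora2a. Dopamine D1 receptors and this adenosine receptor raise cyclic AMP through the G protein subunit Gαolf (Gnal) and adenylyl cyclase type 5 (Adcy5), whereas D2 receptors lower it. Phosphodiesterases such as Pde10a and Pde1b break cyclic nucleotides down. Protein kinase A phosphorylates DARPP-32, the product of Ppp1r1b, which then inhibits protein phosphatase 1. Rgs9 encodes a protein that speeds up the shut-off of G protein signals below D2 receptors, and Gpr6 encodes an orphan receptor of indirect pathway neurons.

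The striatal genes with counts followed one order over the libraries, which did not divide the groups. All 7 were highest in WAS replicate 2, lowest in WAS replicate 1 and second lowest in WAS replicate 3, with the 3 control libraries in between. This order was found in 348 of the 15239 genes tested, or 2.28%. Summed over the 9 genes, the level was 341 CPM (counts scaled to a library total of 1000000) in WAS replicate 1, 1635 CPM in WAS replicate 2 and 492 CPM in WAS replicate 3. In control replicates 1, 2 and 3 the sum was 901, 1125 and 1205 CPM. WAS replicates 1 and 3 thus stood at 31.7% and 45.6% of the control mean and WAS replicate 2 at 152%. Mean levels were 823 ± 708 CPM under the WAS label and 1077 ± 158 CPM under the control label (SD, n = 3 each), a difference smaller than the spread between the libraries labelled WAS. In bulk tissue, fewer striatal cells in a sample and less RNA per cell cannot be told apart.

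WAS replicates 1 and 3 also differed from the other 4 libraries in transcripts of other brain regions. Markers of thalamus, 12 genes, summed to 893 and 789 CPM in WAS replicates 1 and 3 and to between 380 and 417 CPM in the other libraries, and 10 of them were higher in both of these libraries than in any other. Slc17a6, a vesicular glutamate transporter of thalamus and midbrain, had 1710 and 1339 counts in WAS replicates 1 and 3 against 284 in WAS replicate 2 and 402, 304 and 273 in the controls. Markers of midbrain and hindbrain, 11 genes of which 10 had counts, summed to 45.1 and 64.9 CPM in WAS replicates 1 and 3 and to between 0.433 and 4.86 CPM elsewhere. En1, a midbrain transcription factor, had 124 and 157 counts in these libraries, 1 count in WAS replicate 2 and 0 in each control. Of this list 7 genes were higher in both of these libraries than in any other. Its hindbrain genes Hoxb3 and Hoxb5 had 1 and 0 counts in WAS replicate 1, 8 and 3 counts in WAS replicate 3 and 0 elsewhere, and Hoxb2 was at 0 in every library. Slc6a4, the serotonin transporter gene, had 14 and 97 counts in these libraries and 0 in the others. Over all genes tested, 14.3% were higher and 9.62% lower in both WAS replicates 1 and 3 than in the other libraries. Markers of hippocampus, 10 genes, stood at 152% and 142% of their control mean in WAS replicates 1 and 3 and at 111% in WAS replicate 2, and 5 of them were higher in WAS replicates 1 and 3 than in any other library. Markers of striatal interneurons, 10 genes, stood at 91.9%, 109% and 92.0% in WAS replicates 1, 2 and 3, with 2 genes (Pvalb and Th) higher and 3 lower in WAS replicates 1 and 3 than in all others. Sst made up between 284 and 313 CPM of the sum. Chat, one of the 3 lower genes and the gene of the enzyme that makes acetylcholine, had 10, 182 and 66 counts in the WAS replicates and 116, 92 and 230 in the controls. Markers of cortex, 14 genes, stood at 81.2%, 86.9% and 75% of their control mean in WAS replicates 1, 2 and 3. Of them 0 were higher and 5 lower in WAS replicates 1 and 3 than in all others. Mef2c alone made up between 1650 and 2550 CPM of cortical sums of 2960 to 4200 CPM. Marker sums of neurons in general, astrocytes, oligodendrocytes, microglia and endothelium lay between 88.7% and 122% of the control mean in the libraries labelled WAS. Sums for choroid plexus ran from 17.9 to 1260 CPM and those for hypothalamus from 4.34 to 53.7 CPM, in neither case along the order of the striatal genes. Rtn4rl2 of the cortical list and Otp of the hypothalamic list were at 0 in every library, while cortical Neurod6 was at 84.1 CPM or more in each. The part of these other regions in the levels of the striatal genes was not tested.

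**Figure D1:**
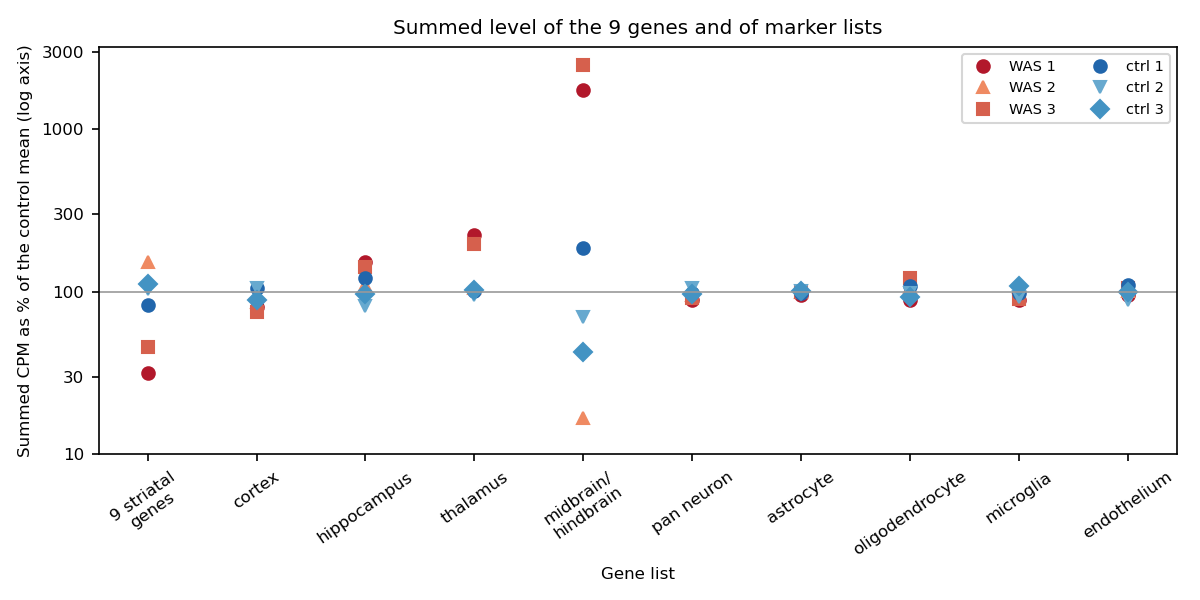
Summed CPM of the 9 striatal genes and of 9 lists of marker genes in each library, as a percentage of the mean of the 3 control libraries on a log axis. The striatal sum is lowest in WAS 1 (31.7%) and WAS 3 (45.6%), the libraries with the highest sums for thalamus and midbrain and hindbrain, while the sums for general neuronal, glial and vascular markers lie close to 100.

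Promoter sequences were available from RefSeq (GRCm38.p6) for 6 of the 9 genes. Those of Rgs9, Adcy5 and Pde1b are shown as examples of a regulator, a cyclase and a phosphodiesterase gene whose levels moved together over the libraries. Each line gives the 250 bases before a transcription start, read 5′ to 3′ along the gene. Capitals mark the letters of 3 promoter motifs on either strand. The motif GGGCGG is called the GC box. The motif TATAAA stands for the TATA box, and the remaining motif is the box named by its letters CCAAT.
Rgs9, chr11:109298182-109298431, minus strand: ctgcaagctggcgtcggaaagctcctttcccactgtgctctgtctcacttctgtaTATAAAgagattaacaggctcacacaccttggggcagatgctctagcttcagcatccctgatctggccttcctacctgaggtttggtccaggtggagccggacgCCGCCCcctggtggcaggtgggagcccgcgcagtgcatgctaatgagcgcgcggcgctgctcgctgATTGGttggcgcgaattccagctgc
Adcy5, chr16:35154614-35154863, plus strand: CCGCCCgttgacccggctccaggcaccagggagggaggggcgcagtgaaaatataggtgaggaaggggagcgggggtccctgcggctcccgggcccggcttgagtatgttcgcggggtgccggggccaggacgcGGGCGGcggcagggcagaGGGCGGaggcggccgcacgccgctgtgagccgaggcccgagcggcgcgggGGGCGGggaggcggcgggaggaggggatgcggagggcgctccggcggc
Pde1b, chr15:103502784-103503033, plus strand: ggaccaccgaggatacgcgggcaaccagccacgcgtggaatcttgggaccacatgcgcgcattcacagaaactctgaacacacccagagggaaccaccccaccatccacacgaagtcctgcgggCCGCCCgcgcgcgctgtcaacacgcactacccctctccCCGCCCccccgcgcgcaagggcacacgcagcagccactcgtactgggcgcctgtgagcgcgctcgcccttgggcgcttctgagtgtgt
The Adcy5 window held 4 GC boxes, the Pde1b window 2 and the Rgs9 window 1, beside 1 CCAAT box and 1 TATA box in Rgs9. These are matches of letters at any place in a window, and whether they act as promoter elements was not tested. GC boxes occurred in 32.7% of 32817 such windows, CCAAT boxes in 33.8% and TATA boxes in 12.4%. The cyclic AMP response element (TGACGTCA, which holds its own half-site TGACG) was not among the letters of these 3 windows and occurred in 1.55% of all windows, and the half-site in 17.7%. Of the 9 windows that RefSeq gave for the 6 genes, the one of Gpr6 held 1 such element, and the 2 other windows of Pde1b held none of the motifs searched. The counts give no information on which start was used, since QuantSeq reads the other end of the transcript.

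Among the receptors, Adora2a, the adenosine receptor gene of indirect pathway neurons (chromosome 10, 75316877 to 75334784, plus strand), varied most. It had 5, 465 and 73 counts in WAS replicates 1, 2 and 3 and 279, 293 and 348 counts in the control replicates. The level in WAS replicate 1 was 0.497 CPM, or 1.66% of the control mean, with an exact 95% Poisson interval of 0.161 to 1.16 CPM that covers counting error only. WAS replicate 3 stood at 24.5% and WAS replicate 2 at 168% of the control mean, so that the ratio of WAS replicate 2 to WAS replicate 1 was 101. Mean levels were 19.4 ± 27.0 CPM under the WAS label and 29.9 ± 4.40 CPM under the control label (SD, n = 3 each).

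The other receptors of the set had next to no counts in these tables. Drd2, the dopamine D2 receptor gene (chromosome 9, 49340627 to 49408177, plus strand), had 1 count in control replicate 2 and 0 counts in each of the other 5 libraries. Gpr6 (chromosome 10, 41069977 to 41072285, minus strand) was listed at 0 in all 6 libraries. A count of 0 allows up to 3 counts in a library, which is between 0.286 and 0.324 CPM at these depths. Adora2a and Penk, which mark the same indirect pathway neurons, had between 279 and 2502 counts in the control libraries, and 4593 entries of the tables were at 0 throughout. No fold change is given for Drd2 or Gpr6, and how reads of these genes were aligned and counted was not tested.

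Of the genes that couple the receptors to cyclic AMP, Adcy5 (chromosome 16, 35154877 to 35305738, plus strand) varied more than Gnal. Adcy5 had 274, 1224 and 402 counts in WAS replicates 1, 2 and 3 and 764, 918 and 840 counts in the control replicates. Gnal, the subunit of Gαolf, had 1651, 3322 and 1909 counts in the libraries labelled WAS and 2555, 2986 and 3090 counts in those labelled control. In WAS replicate 1 Adcy5 stood at 33.3% and Gnal at 58.5% of the control mean. The ratio of WAS replicate 2 to WAS replicate 1 was 4.86 for Adcy5 and 2.19 for Gnal, the smallest of the 7 genes. Exons of Gnal overlap those of Mppe1 on the opposite strand over up to 842 bases, and since the counting is not stated to use strand, the counts of Gnal are uncertain to that extent. Mppe1 itself had between 61 and 143 counts in a library.

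Rgs9 (chromosome 11, 109225355 to 109298129, minus strand), the gene of the regulator below D2 receptors, had 84, 632 and 125 counts in WAS replicates 1, 2 and 3 and 371, 418 and 461 counts in the control replicates. Both WAS replicates 1 and 3 lay below the lowest control, at 20.6% and 30.8% of the control mean, and WAS replicate 2 lay above the highest at 168%. Mean levels were 29.7 ± 33.5 CPM under the WAS label and 40.6 ± 5.45 CPM under the control label (SD, n = 3 each).

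The 2 phosphodiesterase genes differed in how far they moved. Pde10a (chromosome 17, 8525372 to 8986648, plus strand), which hydrolyses both cyclic AMP and cyclic GMP and is concentrated in spiny projection neurons, had 216, 1636 and 392 counts in WAS replicates 1, 2 and 3 and 915, 1197 and 1269 counts in the control replicates. Pde1b (chromosome 15, 103503034 to 103530052, plus strand), a phosphodiesterase switched on by calcium and calmodulin, had 800, 2275 and 844 counts against 1688, 1886 and 1894. In WAS replicate 1 Pde10a was at 19.5% and Pde1b at 44.8% of the control mean. For Pde1b WAS replicates 1 and 3 were nearly level, with a ratio of 1.06 between them, while Pde10a was 1.83 times as high in WAS replicate 3.

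Ppp1r1b, the gene of DARPP-32 (chromosome 11, 98348404 to 98357796, plus strand), had 404, 5569 and 1162 counts in WAS replicates 1, 2 and 3 and 2890, 3984 and 4121 counts in the control replicates. WAS replicate 1 stood at 11.2% of the control mean, WAS replicate 3 at 32.6% and WAS replicate 2 at 169%. Mean levels were 253 ± 305 CPM under the WAS label and 357 ± 72.6 CPM under the control label (SD, n = 3 each). Exons of Ppp1r1b overlap those of 1700003D09Rik on the opposite strand over up to 215 bases, and this gene had at most 36 counts in a library. None of the 9 genes shared a stretch of 50 bases in the last 500 bases of its longest transcript with another GENCODE gene.

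**Figure D2:**
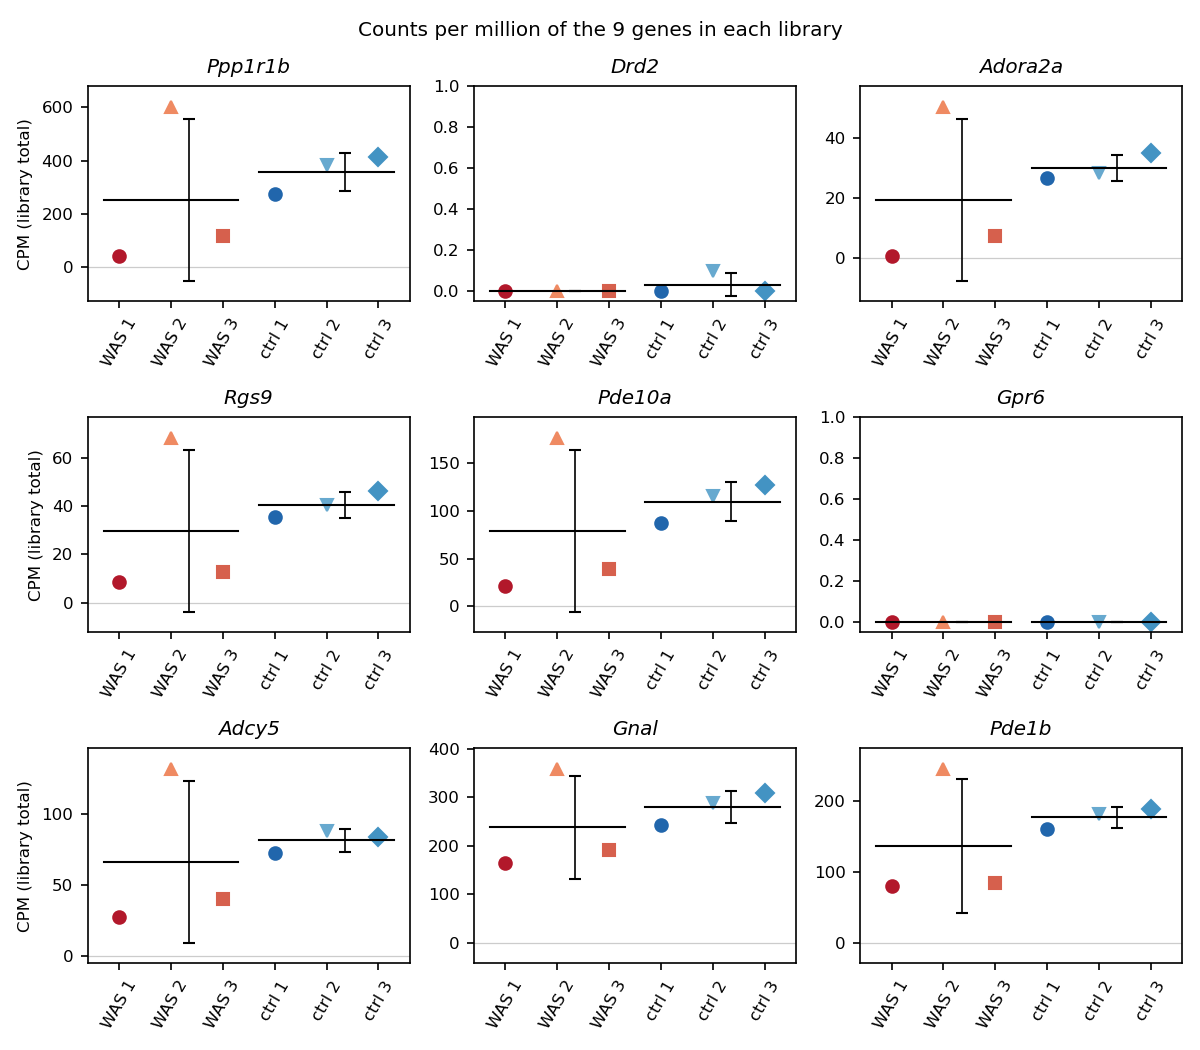
CPM of each of the 9 genes in the 3 libraries labelled WAS (red shades) and the 3 labelled control (blue shades), with group means as lines and the SD as bars beside them. In each of the 7 genes with counts WAS 2 is the highest point and WAS 1 the lowest, the control points lie between WAS 3 and WAS 2, and Drd2 and Gpr6 lie at or near 0.

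Among the controls the 7 genes spread far less. The ratio of the highest to the lowest control was between 1.18 for Pde1b and 1.5 for Ppp1r1b, and the coefficient of variation was between 8.46% and 20.3%, against 44.4% to 139% in the libraries labelled WAS. Control replicate 1 was the lowest control in all 7 genes. Control replicate 3 was the highest in 6 of them, and for Adcy5 control replicate 2 was the highest. Over all 6 libraries the SD of log2(CPM + 1) ran from 0.43 for Gnal to 1.90 for Adora2a. Among 11157 genes with a mean of at least 5 CPM the median SD was 0.158 and the 99th percentile 0.617. Of the 7 genes, 6 lay above that percentile, and 3 genes of the 11157 had a larger SD than Adora2a and 368 a larger SD than Gnal.

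The 7 genes did not scale together. Relative to the control mean, the level in WAS replicate 1 ran from 1.66% for Adora2a through 11.2% for Ppp1r1b, 19.5% for Pde10a, 20.6% for Rgs9, 33.3% for Adcy5 and 44.8% for Pde1b to 58.5% for Gnal. In WAS replicate 3 it ran from 24.5% for Adora2a to 68.2% for Gnal. In WAS replicate 2 the genes lay closer together, between 128% for Gnal and 169% for Ppp1r1b. Gnal, which olfactory and many other neurons also use, had 409 counts per 100 counts of Ppp1r1b in WAS replicate 1 (exact 95% interval 366 to 457), 164 in WAS replicate 3 (153 to 177) and 59.7 in WAS replicate 2 (57.1 to 62.3). In the control replicates this ratio was 88.4, 74.9 and 75. These intervals cover counting error only.

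**Figure D3:**
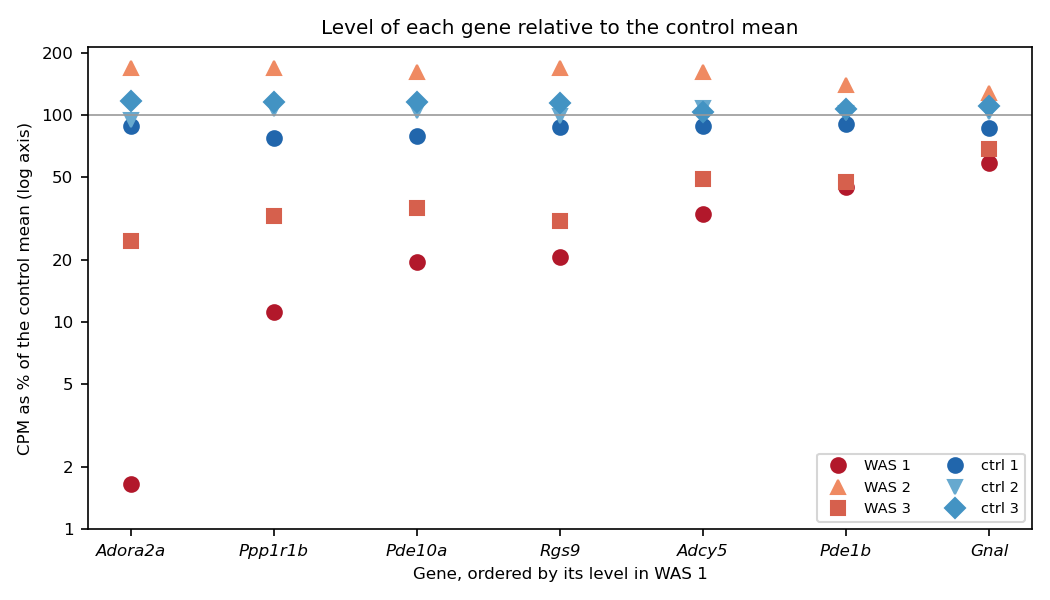
CPM of the 7 genes with counts in each library as a percentage of the control mean, on a log axis, ordered by the level in WAS 1. The points of WAS 1 climb from 1.66% for Adora2a to 58.5% for Gnal, whereas those of WAS 2 lie between 128% and 169%.

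Markers of the indirect and direct pathways were also compared within each library. Adora2a had 1.43 counts per 100 counts of Drd1, the gene of the dopamine D1 receptor, in WAS replicate 1 (exact 95% interval 0.461 to 3.37). In WAS replicates 2 and 3 it had 13.8 (12.5 to 15.2) and 12 (9.29 to 15.3), and in the control replicates 13.8, 12.3 and 13.0, whose intervals overlap each other and those of WAS replicates 2 and 3. Penk, which encodes the opioid precursor proenkephalin of indirect pathway neurons, had 68.6 counts per 100 of Drd1 in WAS replicate 1 (57.9 to 81.0), 116 in WAS replicate 2 (110.0 to 121) and 142 in WAS replicate 3 (128 to 158), against 107, 105 and 93.4 in the controls. Ppp1r1b, which both pathways use, had 115, 165 and 191 counts per 100 of Drd1 in the WAS replicates against 143, 168 and 154 under the control label, so that it was lowest in WAS replicate 1 and highest in WAS replicate 3, like Penk. The other indirect pathway genes tested were less reduced in WAS replicate 1 than Drd1, which stood at 15.1% of its control mean. Sp9 stood at 36.0%, Upb1 at 34.7%, Oprd1 at 54.2% and Ptprm at 100% of the control mean, Upb1 and Oprd1 with at most 23 counts in a library.

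Between the labelled groups, all 7 genes had a fitted log2 fold change below 0 for the libraries labelled WAS relative to control, from -0.68 for Adora2a (standard error 0.79) to -0.27 for Gnal (standard error 0.23). The values were -0.54 for Ppp1r1b (standard error 0.67), -0.51 for Pde10a (0.55), -0.50 for Rgs9 (0.56), -0.42 for Pde1b (0.34) and -0.34 for Adcy5 (0.43). The median over the 7 genes was -0.50, and that over all 15239 genes tested was 0.00088. In each of the 7 genes the libraries of the groups overlapped, whereas they did not overlap in 12.2% of all genes tested. A gene was called where edgeR's quasi-likelihood test gave an unadjusted p below 0.05 with at least a 1.5-fold difference. Of the 7 genes 0 were called, where 2.49% of all genes were and 0.676% were called lower. Over all genes 277 calls were higher and 103 lower, and limma on quantile-normalized values gave 220 higher and 192 lower. Of the 15239 genes 0 had an adjusted p under 0.05, 7.24% had an unadjusted p under 0.05, and DESeq2 gave 22 genes with an adjusted p under 0.05.

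WAS replicate 2 decided these values. Without it the log2 fold change was -2.97 for Adora2a (standard error 0.47), -2.23 for Ppp1r1b (0.31), -2.00 for Rgs9 (0.19), -1.89 for Pde10a (0.21), -1.32 for Adcy5 (0.15), -1.15 for Pde1b (0.10) and -0.70 for Gnal (0.11). The number of the 7 genes called was then 7, beside 5.45% of all genes (2.45% called lower), and 3.18% of all genes had an adjusted p below 0.05 in edgeR. With WAS replicates 1 and 3 left out instead, a comparison added once the data had been seen, the signs turned around and the log2 fold change of WAS replicate 2 over the controls was between 0.32 for Gnal and 0.71 for Adora2a, Ppp1r1b and Rgs9. The number called was 5 there, beside 2.34% of all genes, with the single library assumed to vary like the controls. Both numbers restate the order of the libraries from which the genes were chosen, and nothing is read from them. Leaving out WAS replicate 1 gave the 7 genes a median of -0.067, and leaving out WAS replicate 3 one of -0.17.

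**Figure D4:**
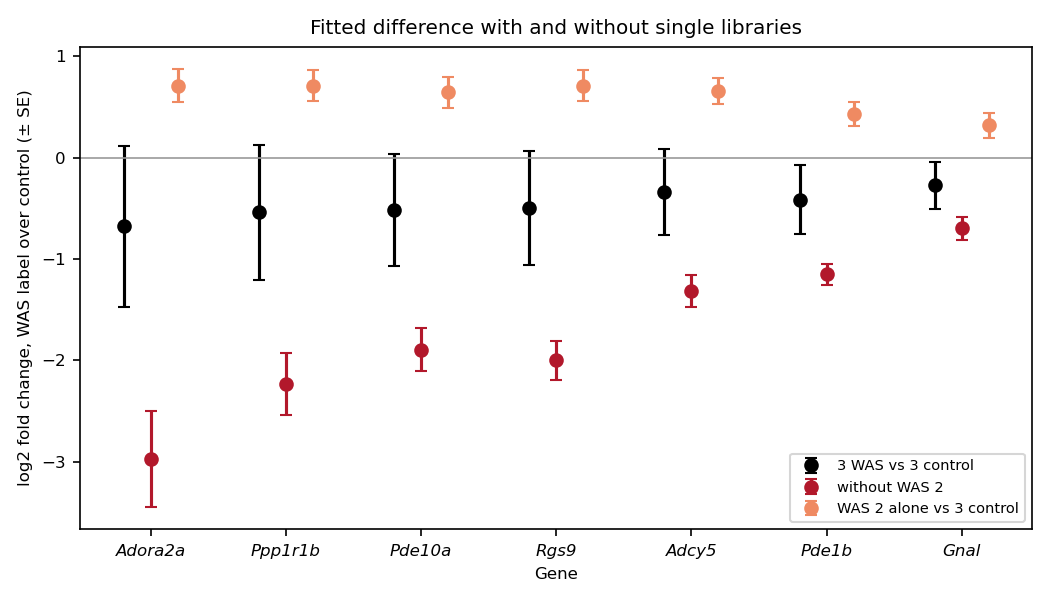
Fitted log2 fold change of the 7 genes for the WAS label over control, with bars of 1 standard error, from all 6 libraries (black), without WAS 2 (red) and for WAS 2 alone against the controls (orange). Each gene lies below 0 in the first and the second comparison and above 0 in the third.

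Other genes of striatal projection neurons were divided, with part of them in the order of the 7 genes and others, such as Ebf1 and Ptprm, not. Of 10 genes listed for the direct pathway all were tested, 8 had a log2 fold change below 0 and the median was -0.14, and 5 of them followed the order of the 7 genes over the libraries. Drd1 had 350, 3380 and 608 counts in WAS replicates 1, 2 and 3 and 2026, 2374 and 2678 counts in the control replicates. For Drd1 edgeR's fit gave -0.62 on the log2 scale with a standard error of 0.62 and an adjusted p of 0.901 (Benjamini-Hochberg). Tac1, the precursor gene of substance P, was at 30.2, 154 and 38.0 CPM in the libraries labelled WAS and at 82.8, 94.7 and 113 CPM in the controls, and Pdyn, the prodynorphin gene, was at 12.9, 49.9 and 14.6 CPM against 26.3, 22.5 and 33.4 CPM. Ebf1 was the single gene of this list with an unadjusted p under 0.05, and it lay higher under the WAS label by 0.43 on the log2 scale (standard error 0.13), though edgeR's adjusted p was 0.539.

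Of 6 genes listed for the indirect pathway 5 were tested, with 4 below 0 and a median of -0.34. Penk had 240, 3911 and 862 counts in WAS replicates 1, 2 and 3 and 2160, 2489 and 2502 counts in the control replicates, and edgeR's fit gave -0.42 on the log2 scale with a standard error of 0.67 and an adjusted p of 0.950. The order of Penk over the libraries was that of the 7 genes, and it was the single gene of its list to follow it. Ptprm, the other abundant gene of this list, lay between 40.2 and 58.3 CPM. Gpr52, an orphan receptor often found with D2 receptors, had at most 5 counts in a library and was not tested.

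Of 30 genes shared by both kinds of projection neuron all were tested, 26 had a log2 fold change below 0 and the median was -0.38. The order of the 7 genes was found in 21 of them, or 70.0%, beside 2.28% of all genes tested. In WAS replicate 1 13 of these genes and in WAS replicate 3 12 of them stood under 50% of the control mean, while 27 lay above it in WAS replicate 2. Of all 15239 genes tested, 648 in WAS replicate 1 and 515 in WAS replicate 3 stood under 50% of the control mean. In WAS replicate 2, 8634 of them lay above it. Arpp21, the gene of a phosphoprotein regulated by cyclic AMP that cortex also expresses, ranged from 434 CPM in WAS replicate 1 to 859 CPM in WAS replicate 2. By edgeR's quasi-likelihood test 3 genes of the list, Foxp1, Camk4 and Pde2a, were lower at an unadjusted p under 0.05, with log2 fold changes of -0.49, -0.39 and -0.27, and 0 passed an adjusted p of 0.05, the smallest being 0.615. Without WAS replicate 2, 24 of the 30 genes were called lower, beside 2.45% of all genes, and the median of the 30 was -0.92, which follows from the order of the libraries given above.

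**Figure D5:**
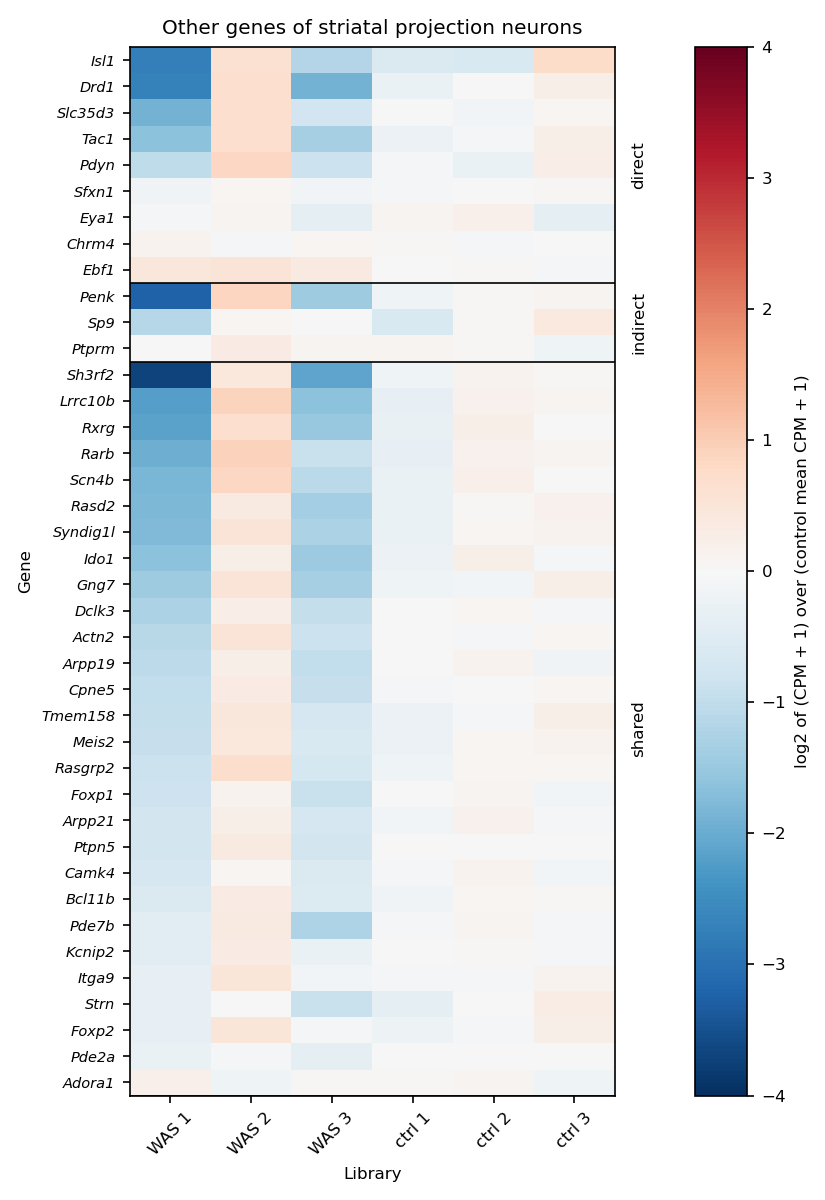
Heat map of log2 of (CPM + 1) over (control mean CPM + 1) for 40 other genes of striatal projection neurons with a mean of at least 20 counts, 9 of the direct pathway, 3 of the indirect pathway and 28 shared, in the 6 libraries. Blue cells in the columns of WAS 1 and WAS 3 and pale red cells in that of WAS 2 mark genes such as Drd1 and Penk, and genes such as Ptprm and Adora1 stay near white.

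Other genes of the dopamine and adenosine pathway had values of several kinds. Of the other dopamine receptors, Drd3 was at 0 in all libraries and Drd4 had at most 3 counts in any. Drd5, the D5 receptor, had 82, 32 and 51 counts in WAS replicates 1, 2 and 3 and 42, 30 and 22 counts in the controls, and its groups overlapped. By edgeR's test it was called higher under the WAS label, by 0.84 on the log2 scale (standard error 0.36), at an adjusted p of 0.667. Of 9 genes of adenosine receptors and adenosine handling 8 were tested, and 0 followed the order of the 7 genes. Adora1, the A1 receptor that many neurons carry, was at 341, 259 and 302 CPM in the libraries labelled WAS and at 304, 315 and 260 CPM in the controls, and adenosine kinase (Adk) lay between 57.0 and 66.1 CPM. The adenosine transporter gene Slc29a1 had an unadjusted p under 0.05, a log2 difference of 0.47 with standard error 0.21, and an adjusted p of 0.681 in edgeR. Gpr12, a close relative of Gpr6, lay between 17.4 and 21.9 CPM.

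Genes of the cyclic AMP cascade outside the set were likewise listed by role. Of 18 G protein and RGS genes tested, 13 were below 0 with a median of -0.093, and 3 followed the order of the 7 genes. Gng7, the γ subunit that joins Gαolf in the striatum, was at 29.4, 116 and 31.3 CPM in WAS replicates 1, 2 and 3 and at 70.9, 74.5 and 95.7 CPM in the controls, whereas Gnas, the widely used relative of Gnal, lay between 1765 and 2088 CPM. Rgs4 and Rgs7bp, the latter an anchor of Rgs9, had log2 fold changes of -0.53 and -0.30 with unadjusted p under 0.05 and adjusted p of 0.582 and 0.681 by edgeR's test. Of the 9 other adenylyl cyclases 0 followed the order, and the abundant Adcy1 was at 372, 298 and 323 CPM in the libraries labelled WAS and at 436, 402 and 333 CPM in the controls. Adcy1 and Adcy2 were lower at an unadjusted p under 0.05, with log2 fold changes of -0.27 and -0.32 and adjusted p of 0.647 and 0.539 by edgeR's test.

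Of 15 other phosphodiesterases tested, 14 were below 0 with a median of -0.11, and 2 followed the order. Pde1a and Pde2a were lower at an unadjusted p under 0.05, with log2 fold changes of -0.22 and -0.27 and adjusted p of 0.622 and 0.615 by edgeR's test. Their groups and those of Pde11a did not overlap, as was the case in 12.2% of all genes tested. Pde11a was called higher, but had between 2 and 9 counts in a library. Of 20 genes of protein kinase A, its partners and phosphatases, 13 were below 0 with a median of -0.079. Here Prkar1b, a regulatory subunit of protein kinase A, had an unadjusted p under 0.05 a log2 difference of -0.28 with standard error 0.083, and an adjusted p of 0.539 in edgeR, and Ppp3ca, the calcineurin subunit whose phosphatase acts on DARPP-32, was at 3913, 5810 and 4109 CPM against 5255, 5528 and 4878 CPM. Over the 114 distinct genes of all these lists that were tested, 85 were below 0, the median was -0.13, and 9 were lower and 4 higher at an unadjusted p under 0.05. Of these 2, Drd5 and Pde11a, were called and 0 passed an adjusted p of 0.05. The shares of all genes were 7.24% at that unadjusted p and 2.49% called. Without WAS replicate 2, 36 of the 114 were called, beside 5.45% of all genes. The number fell to 1 on leaving out WAS replicate 1 or control replicate 1, and to 0 on leaving out any of the other 3 libraries.

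The genes most like the set over the 6 libraries were sought among 11150 others with a mean of at least 5 CPM, by Pearson's r of log2(CPM + 1) with the mean centred profile of the 9 genes. The 10 with the highest r, from 0.998 to 0.990, included Lancl2, Drd1, Syndig1l, Dach1, Rxrg, Cd4, Rasd2, Lrrc10b and Penk. All 6 values of such a correlation share their library with every other gene, and 296 genes had an r of at least 0.9. Without WAS replicates 1 and 3, the libraries farthest from the median of the profile, r over the remaining 4 was between 0.949 and 0.993. Of the 10 genes, 7 were on the lists of striatal genes above. Lancl2 had the highest r but a ratio of WAS replicate 2 to WAS replicate 1 of 1.17, with 547 to 639 counts in a library. Cd4, best known as the gene of a co-receptor on T cells, had 6, 164 and 14 counts in WAS replicates 1, 2 and 3 and 77, 101 and 100 counts in the controls, a ratio of 29.8. Rasd2, the gene of the striatal GTPase Rhes, had 296, 1252 and 403 counts against 912, 1133 and 1186.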

How the data were processed

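The authors prepared QuantSeq 3′ mRNA-Seq libraries from forebrain RNA, mapped the 75 bp single-end reads with Bowtie2 and, with Bedtools, counted both unique and multiple alignments for each gene. The submitters' processing notes name mm10, the assembly that GENCODE M21 (GRCm38) annotates, and versions are not given in the sources used here. The deposited values are raw read counts, 9248520 to 10502029 per library, without molecular identifiers, so intervals understate technical error. Levels are CPM of the library total, with the SD over 3 libraries. Fold changes came from edgeR 4.0.16 in R 4.3.3 (TMM factors 0.976 to 1.01, quasi-likelihood test, no replicate term) on 15239 genes whose log2(quantile-normalized count + 1) averaged 2 or more. Calls needed an unadjusted p below 0.05 with at least a 1.5-fold difference. Adjusted p-values follow Benjamini and Hochberg across the genes tested. Standard errors are the log2 fold change over the square root of F. Nothing states that the mice came from separate cages or days, so p-values measure the spread between these libraries. The 9 genes, the other lists and the tests were chosen with earlier results of these data known. The rule for names took the 9 genes, Drd1, Tac1, Pdyn, Penk, Gpr52, Adora1, Drd3, Drd4 and Drd5, per list the 2 genes of highest mean CPM and at most 6 with an unadjusted p below 0.05, and the 10 genes most like the set. Not all genes that it gives are reported here. Other genes named, such as Gng7, En1 and Neurod6, include some chosen after their values were seen. Alternatives were total-count scaling, DESeq2 1.42.0, 2 other filters, limma 3.58.1 on quantile-normalized log2 counts, a block for the replicate number, and leaving out each library. Metabolomics data were not analysed here.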

Additional observations from a re-analysis of the deposited data

How the results depend on the processing

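The median log2 fold change of the 7 genes was -0.46 with total-count scaling, -0.49 with DESeq2, -1.06 on quantile-normalized log2 counts and -0.98 with the replicate number as a block, and it ran from -1.89 to -0.067 when single libraries were left out, where Adcy5 alone changed sign (0.034 without WAS replicate 1). The ratio of the summed level of the 9 genes, WAS over control, ran from 0.386 to 0.987 with each library left out, against 0.764. The number of the 7 genes called was 5 with the replicate block, where 417 of all 15239 genes were called and 139 of them lower, and 5 for WAS replicate 2 alone against the controls, and ran from 0 to 7 with each library left out. It was 0 in the other alternatives. Deviations from the group means correlated at 0.0878, 0.115 and 0.102 between same-numbered libraries, and each correlated best with its own number, a hint from the data and not from the design. Over all genes, those called ran from 261 to 831 with each library left out. The genes with an adjusted p under 0.05 numbered 22 with DESeq2, 49 with the replicate block, 1 for WAS replicate 2 alone and from 0 to 484 with each library left out. Of the other listed genes, 1 was called with DESeq2, 1 with no filter on low counts, 1 with filterByExpr, 1 with limma, 14 with the replicate block and 11 for WAS replicate 2 alone, and from 0 to 36 with each library left out, against 2. Their median ran from -0.24 to -0.049 with each library left out and was 0.071 for WAS replicate 2 alone. Of the 10 genes most like the set, between 4 and 6 stayed among the first 10 with each library left out, and 9 with a minimum of 2 or 20 CPM. With Spearman's rho 0 of them were among the first 10, but 58 genes tied at 1, 6 of the 10 among them, so that value rests on the order of ties and says nothing of likeness. The cause of these shifts was not tested. Drd2 and Gpr6 had too few counts to be compared, for a reason that was not tested, and the 5 counts of Adora2a in WAS replicate 1 were the fewest of the 7 genes tested.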
